A study of Mus musculus with 31 samples.

Results

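Interscapular brown fat (iBAT) was compared with epididymal white fat (eWAT) in male C57BL/6J mice aged 8 weeks that had spent 8 days at thermoneutrality and were killed before any cold exposure (day 0). The comparison held 6 of the 31 libraries of a cold-exposure series: iBAT516, iBAT517 and iBAT518 against eWAT516, eWAT517 and eWAT518, chosen by tissue and time alone. Libraries were built from 1 µg of total RNA of whole dissected tissue, so each value averages over all cell types present, and fewer cells of a type and less RNA per cell cannot be told apart. The labels do not say what the numbers in these names are or whether each library came from a separate animal, so p-values measure the spread between these libraries, which may be technical in part. The 2 depots were deposited as separate count tables. Of 17334 RefSeq accessions in the series' tables, 13543 had a row in both, and 9113 passed the filter on low counts and were tested.

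Brown adipocytes oxidise fatty acids and glucose to make heat. Uncoupling protein 1 (UCP1), a carrier of the inner mitochondrial membrane, lets protons return to the matrix without passing through ATP synthase, so that the respiratory chain runs fast and its energy is released as heat. Noradrenaline from sympathetic nerves turns this on through beta-adrenergic receptors and cyclic AMP, and thermoneutrality is the temperature at which that drive is lowest. Epididymal fat is a visceral white depot that stores triglyceride, secretes hormones such as leptin, is covered by mesothelium and lies against the epididymis and testis.

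Promoters of 4 genes that stand for the comparison are shown first, each running from 250 bases before to 50 bases after the annotated start, in the direction of the gene. Ucp1 and Cox7a1, a subunit of cytochrome c oxidase, were higher in iBAT. Hadhb, the beta subunit of the mitochondrial trifunctional protein of fatty acid oxidation, was higher together with Hadha, its alpha subunit, which starts on the opposite strand 273 bases away, so that 228 bases of their 300-base windows are the same DNA. Agt, which encodes angiotensinogen, was lower in iBAT. Sequences are from RefSeq on GRCm38.p6: Ucp1 at chr8:83290098-83290397 (plus strand), Cox7a1 at chr7:30183921-30184220 (plus), Hadhb at chr5:30155003-30155302 (plus) and Agt at chr8:124569657-124569956 (minus). Capitals mark the nuclear receptor half-site AGGTCA in Ucp1, 14 bases before the start, the CCAAT box read on the opposite strand in Cox7a1, 137 and 74 bases before the start, and the TATA box TATAAA in Agt, 30 bases before the start. The Hadhb window holds none of the motifs marked in the others.
Ucp1: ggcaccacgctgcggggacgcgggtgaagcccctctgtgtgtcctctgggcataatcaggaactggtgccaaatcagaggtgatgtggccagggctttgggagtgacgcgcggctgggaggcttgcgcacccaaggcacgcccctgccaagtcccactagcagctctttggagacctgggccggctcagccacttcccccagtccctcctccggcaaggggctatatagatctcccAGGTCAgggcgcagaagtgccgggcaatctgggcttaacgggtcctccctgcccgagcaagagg
Cox7a1: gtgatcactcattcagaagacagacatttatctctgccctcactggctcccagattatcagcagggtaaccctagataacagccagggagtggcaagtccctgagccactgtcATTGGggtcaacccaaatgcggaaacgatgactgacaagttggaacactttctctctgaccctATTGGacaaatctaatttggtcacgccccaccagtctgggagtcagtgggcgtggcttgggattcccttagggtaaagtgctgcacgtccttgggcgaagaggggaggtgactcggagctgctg
Hadhb: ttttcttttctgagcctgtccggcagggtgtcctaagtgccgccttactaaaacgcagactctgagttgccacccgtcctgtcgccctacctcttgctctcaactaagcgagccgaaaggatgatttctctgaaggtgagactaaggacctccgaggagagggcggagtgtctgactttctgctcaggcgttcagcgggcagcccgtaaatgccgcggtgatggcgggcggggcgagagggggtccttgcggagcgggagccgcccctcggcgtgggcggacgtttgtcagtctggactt
Agt: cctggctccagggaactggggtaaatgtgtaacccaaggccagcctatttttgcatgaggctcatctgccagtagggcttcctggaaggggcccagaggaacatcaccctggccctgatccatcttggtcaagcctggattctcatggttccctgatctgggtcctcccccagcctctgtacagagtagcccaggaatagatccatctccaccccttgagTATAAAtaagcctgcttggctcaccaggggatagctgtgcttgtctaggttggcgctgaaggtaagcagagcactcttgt

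Across rows with a promoter in that table, AGGTCA on either strand lay in 18.1% of the 448 windows of genes higher in iBAT, in 13.7% of the 415 of genes lower in iBAT, in 12.2% of all 7090 tested and in 16% of all 27025 promoters. Its extended form TCAAGGTCA, bound by oestrogen-related receptors, was found in 0.67%, 0.723%, 0.296% and 0.407% of the same windows. The cyclic AMP response element TGACGTCA was in 2.9% of windows of genes higher in iBAT, 1.69% of those lower, 3.3% of those tested and 1.85% of all promoters. CCAAT was in 40.4%, 33.5%, 38.1% and 38.0%, and TATAAA in 11.2%, 10.1%, 7.11% and 14.2%, of the same sets. CCCNNGGG, bound by early B cell factors, was in 19%, 20.5%, 18.3% and 13.4%. Both strands were searched, every TCAAGGTCA match also holds AGGTCA, and a match is a description of these letters and not a binding site.

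Total counts ran from 2714207 to 3756389 in iBAT libraries and from 3417294 to 4025069 in eWAT libraries. TMM factors were 0.842 to 0.871 in iBAT and 1.11 to 1.25 in eWAT. The first principal component held 61.2% of the variance and separated the depots, and the second held 19.4% and set eWAT518 apart from eWAT516 and eWAT517, with iBAT517 on the same side as eWAT518. The common biological coefficient of variation was 0.462. A low row is not shown to be a low gene, since how reads were assigned to accessions is not given in the sources used here: Akt1 and Dcn, which fat tissue is known to express, had 1 count in all 6 libraries together, and Gnas had at most 2 in any library.

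Markers of neighbouring tissue were found in both depots and are given before the results. Summed markers of skeletal muscle, which borders the interscapular pad, came to 25160, 18620 and 59840 CPM (counts scaled by the plain library total, in parts per 1000000) in iBAT516, iBAT517 and iBAT518, against 1434, 71.8 and 46.2 CPM in eWAT516, eWAT517 and eWAT518. All iBAT libraries were above all eWAT libraries, iBAT518 was highest, and no muscle marker was at 0 in iBAT while 2 to 5 of the 16 were at 0 in each eWAT library. Summed markers of epididymis and testis were 0, 0.266 and 0.266 CPM in the iBAT libraries, with at least 7 of 8 at 0 in each, against 20190, 117.5 and 1777 CPM in the eWAT libraries. The eWAT sums differed widely, with eWAT516 highest and eWAT517 lowest. On TMM-scaled sizes 1 marker, Akr1b7, held 12960 of the 16700 CPM in eWAT516. The median of 7 markers was highest in eWAT518, at 4.2 times the mean of the other eWAT libraries. That ratio was 0.331 in eWAT516 and 0.158 in eWAT517. Mesothelial markers summed to between 60.5 and 94.8 CPM in iBAT and between 449 and 1565 CPM in eWAT.

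**Figure D1:**
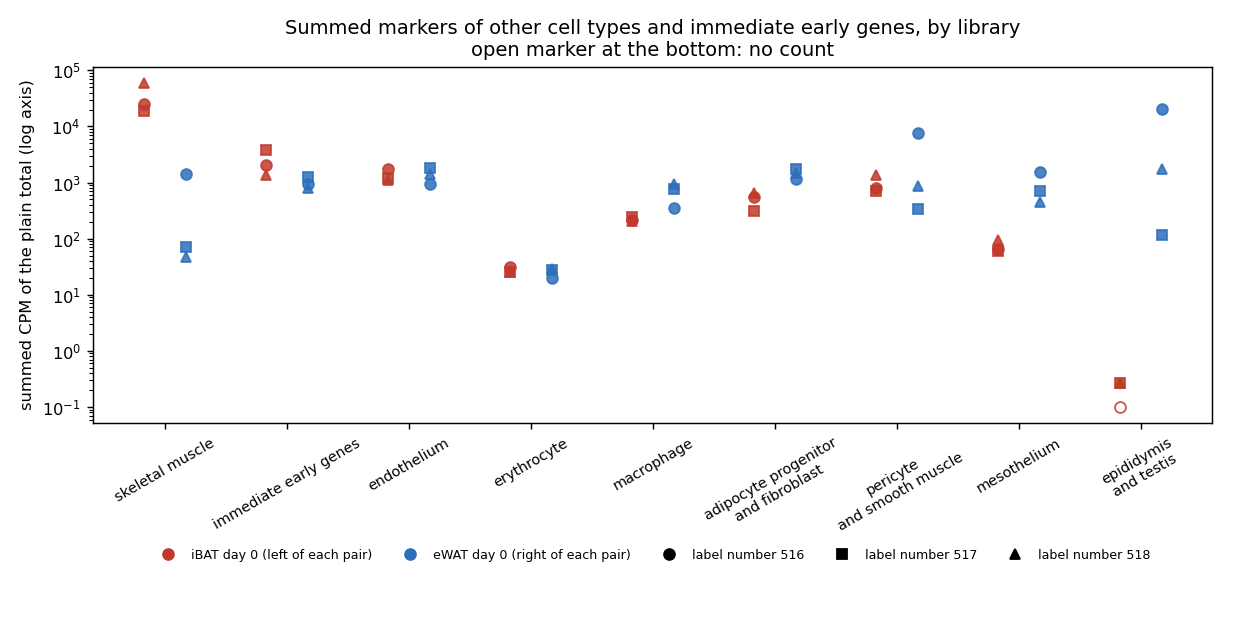
Summed CPM of the plain library total (log axis) for lists of markers of other cell types and for immediate early genes, 1 point per library, iBAT in red and eWAT in blue, with the shape giving the label number. Muscle markers reach 59840 CPM in iBAT518 and markers of epididymis and testis 20190 CPM in eWAT516, while endothelial and erythrocyte sums lie together in both depots.

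Genes listed as defining brown or white adipocytes differed between the depots. Members were chosen with earlier results of these data known, so their counts describe the depots and are not a test of them. All 5 defining brown genes tested (Ucp1, Cidea, Cox7a1, Dio2, Elovl3) were higher in iBAT and all 3 defining white genes (Lep, Retn, Agt) were lower, while 3 genes of adipocytes in general (Adipoq, Fabp4, Cidec) did not pass the test, with 1 at an unadjusted p under 0.05 and 0 called by DESeq2 or limma voom. Over all tested rows, 584 (6.41%) were higher in iBAT and 560 (6.15%) were lower, at an adjusted p under 0.05 in edgeR's quasi-likelihood test with Benjamini-Hochberg adjustment. Every iBAT library lay above every eWAT library in 16.3% of tested rows, and below in 16.9%. The median log2 fold change of all rows was -0.07. With library size alone in place of TMM scaling that median was -0.535, and 420 rows were higher and 1125 lower, so 27.2% of calls were higher in iBAT against 51.0% with TMM scaling. Leaving out iBAT516, iBAT517 or iBAT518 gave 349, 420 or 345 rows higher and 184, 193 or 221 lower.

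**Figure D2:**
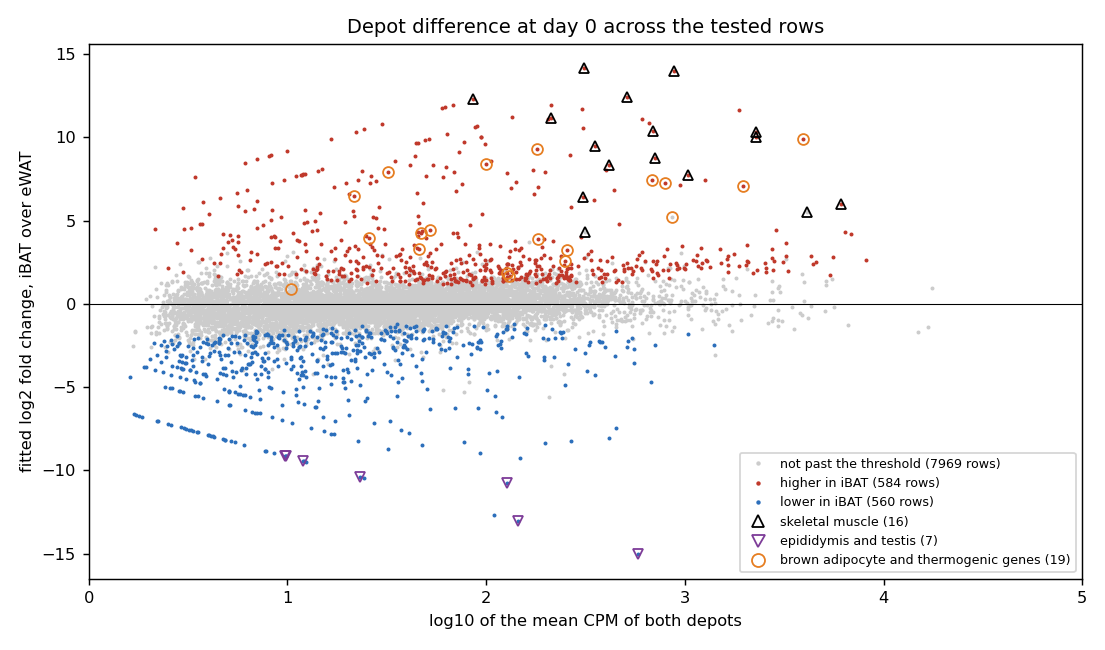
Fitted log2 fold change of iBAT over eWAT against the log10 of the mean CPM of both depots for the 9113 tested rows, with rows past an adjusted p of 0.05 coloured and members of 3 lists ringed. Muscle markers lie at the top, markers of epididymis and testis at the bottom, and thermogenic genes above 0; fitted values of rows with no count in 1 depot depend on the prior count and are not bounds.

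Thermogenic genes made up the group with the largest share of members higher in iBAT among the 28 programme lists. Of 19 tested, 16 were higher and none was lower, with a median log2 fold change of 4.45, and all 19 were positive. Ucp1 (chr8:83290348-83298456) had 9918, 5335 and 8375 CPM on TMM-scaled sizes in iBAT516, iBAT517 and iBAT518, against 2.73, 11.9 and 10.7 CPM in eWAT516, eWAT517 and eWAT518. The groups were far from overlapping, and the log2 fold change was 9.87 (SE 0.81, adjusted p = 0.000417). Cidea, which coats lipid droplets and is a long-used marker of brown adipocytes, had 529, 253 and 299 CPM in iBAT, against 0.63, 0.432 and 0.532 CPM in eWAT (log2 fold change 9.31, SE 0.58, adjusted p = 0.000359). In eWAT it was close to the level of single reads. Dio2, the deiodinase that makes active thyroid hormone within the cell, had 17.4, 76.0 and 34.9 CPM in iBAT, against 0.42, 0.432 and 0.532 CPM in eWAT. It was above every eWAT library in every iBAT library but varied within iBAT, with iBAT517 highest and iBAT516 lowest. Elovl3, an elongase of very long fatty acids that cold induces in brown fat, had 68.3, 18.9 and 105 CPM in iBAT, against 0.21, 0 and 0.532 CPM in eWAT.

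Otop1, a proton channel, had 190, 192 and 217 CPM in iBAT, against 0, 0.432 and 1.33 CPM in eWAT (log2 fold change 8.42), one of the narrowest spreads within iBAT. Kcnk3, a potassium channel, had 262, 535.4 and 222 CPM in iBAT, against 27.9, 20.5 and 19.97 CPM in eWAT. Acot11, a thioesterase also known as a brown fat inducible protein, differed by 4.45, and Clstn3, which in mouse adipocytes has a product that acts at the lipid droplet, by 3.24, both on the log2 scale. Ppargc1b, a coactivator of mitochondrial genes, and its partner Esrra, the oestrogen-related receptor alpha, were higher by 3.28 and 1.87, the Esrra call being lost without any one library but eWAT518. Cox8b, a subunit of cytochrome c oxidase used in brown fat and muscle, had 815, 3448 and 794 CPM in iBAT, against 1.47, 3.46 and 134 CPM in eWAT. It was not called (log2 fold change 5.19, SE 1.61, adjusted p = 0.0702), and iBAT517 and eWAT518 were the highest of their depots. Every iBAT library was above every eWAT library, as in 16.3% of all tested rows. Without eWAT518 Cox8b was called. Ebf2, a transcription factor of brown fat precursors, averaged 13.6 ± 2.5 CPM in iBAT and 7.22 ± 1.3 CPM in eWAT (SD, n = 3 each; adjusted p = 0.191), and Nrg4, a secreted factor, did not pass either (adjusted p = 0.0582); Nrg4 passed without eWAT517 and in DESeq2 and limma voom.

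Several thermogenic genes are also muscle genes, so the muscle signal was set beside them. In iBAT518, the library with the highest muscle sum, the median muscle marker stood at 2.69 times the mean of iBAT516 and iBAT517. The same ratio was 0.842 for the thermogenic list and 1.00 for all rows above 5 CPM. Without both iBAT518 and eWAT516, the libraries with the highest sums of muscle and of epididymal markers, 14 thermogenic genes were higher. In all, 282 rows were higher and 320 lower, and this alternative was chosen after seeing the data. Muscle markers were present in all 3 iBAT libraries, and their part in each gene's difference was not tested.

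**Figure D3:**
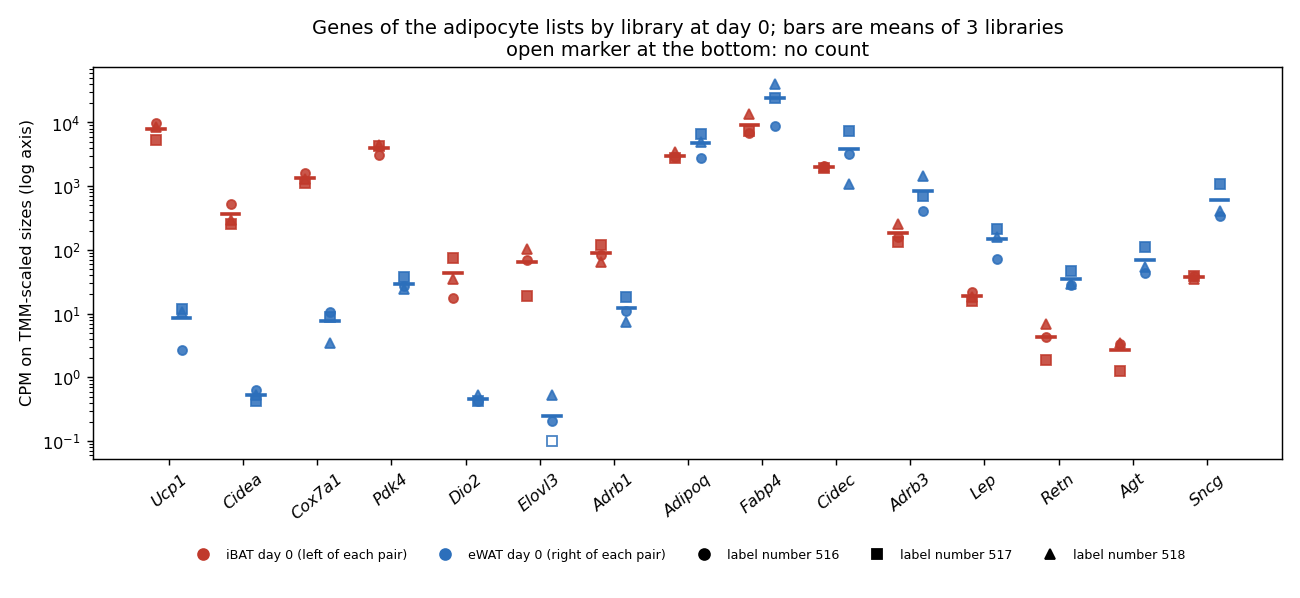
CPM on TMM-scaled library sizes (log axis) of 15 genes of the adipocyte and adrenergic lists, 1 point per library with the mean of 3 as a bar, iBAT in red to the left of eWAT in blue. Ucp1 and Cidea lie far higher in iBAT, Adipoq, Fabp4 and Cidec overlap between depots, and Lep, Retn, Agt and Sncg lie lower in every iBAT library.

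Of 12 tested hormones and markers of white adipocytes, 6 were lower in iBAT (Agt, Sncg, Lep, Retn, Ccdc80, Slc7a10) and 1 was higher (Nampt), with a median of -1.93. Agt had 3.40, 1.26 and 3.49 CPM in iBAT516, iBAT517 and iBAT518, against 43.5, 109 and 54.3 CPM in eWAT516, eWAT517 and eWAT518 (log2 fold change -4.67, SE 0.58, adjusted p = 0.00209). Lep, the satiety hormone leptin, had 22.1, 16.1 and 18.1 CPM in iBAT, against 71.4, 213 and 160 CPM in eWAT (log2 fold change -2.98, SE 0.47, adjusted p = 0.00546). Leptin RNA was thus steady among iBAT libraries and lowest in eWAT516 among the eWAT libraries. Sncg, a synuclein found in white adipocytes and sensory neurons, had 39.5, 39.1 and 34.6 CPM in iBAT, against 344, 1080 and 403 CPM in eWAT (log2 fold change -4.01). Retn, which encodes resistin, differed by -2.97 and Slc7a10, a serine and alanine transporter of white adipocytes, by -2.22. Nampt, an enzyme of NAD synthesis that is also secreted, averaged 314 ± 19 CPM in iBAT and 134 ± 19 CPM in eWAT (SD, n = 3 each; log2 fold change 1.22, adjusted p = 0.0401). The count of lower members was 3 without iBAT516 and 4 without iBAT517 or iBAT518, while Agt, Lep and Sncg were called in each of these fits. The Nampt call was lost without any one library but eWAT518, and the Retn call without iBAT516.

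Of 9 tested genes shared by all adipocytes, 4 were positive and 5 negative. Only Adrb3 passed the test, and it was lower in iBAT. Adipoq, Fabp4 and Cidec summed on plain totals to 10100 to 16030 CPM in iBAT and 17980 to 50060 CPM in eWAT, without overlap. On TMM-scaled sizes these sums overlapped, with iBAT518 at 19090 CPM and eWAT516 at 14870 CPM. Adipoq, which encodes adiponectin, had 2824, 2726 and 3455 CPM in iBAT, against 2785, 6706 and 4920 CPM in eWAT (adjusted p = 0.373). Fabp4, the main fatty acid binding protein of adipocytes, had 6739, 7459 and 13600 CPM in iBAT, against 8845, 24000 and 39540 CPM in eWAT (adjusted p = 0.177). Each overlapped between the depots through eWAT516, which was the lowest eWAT library for both.

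Adrenergic receptors went in opposite directions. Adrb1, a beta receptor, had 82.8, 120 and 65.3 CPM in iBAT516, iBAT517 and iBAT518, against 10.9, 17.9 and 7.46 CPM in eWAT516, eWAT517 and eWAT518 (log2 fold change 2.88, SE 0.46, adjusted p = 0.00544). Adra1a, an alpha receptor coupled to calcium, had 13.2, 18.9 and 15.5 CPM in iBAT, against 3.57, 2.16 and 2.93 CPM in eWAT (log2 fold change 2.45, adjusted p = 0.00886). By contrast Adrb3, the beta receptor typical of rodent adipocytes, had 161, 132 and 259 CPM in iBAT, against 402, 707 and 1455 CPM in eWAT (log2 fold change -2.22, SE 0.55, adjusted p = 0.0309). No library of either depot overlapped for these receptors, beside 16.3% of all tested rows with iBAT above and 16.9% with iBAT below. The Adrb3 call was lost without any one of the iBAT libraries.

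Downstream of the receptors, 16 members of the adrenergic and cyclic AMP list were tested, receptors included, of which 6 were higher and 2 lower, with a median of 1.25. Pde4d, a phosphodiesterase that breaks down cyclic AMP, had 76.8, 75.4 and 128 CPM in iBAT, against 6.93, 6.27 and 4.53 CPM in eWAT (log2 fold change 3.97, SE 0.42, adjusted p = 0.000957). Adenylate cyclases, which make cyclic AMP, split: Adcy9 was higher (log2 fold change 2.25) and Adcy5 was lower (-2.27). The Adcy9 call was lost without any one library but iBAT516 and with limma voom, and the Adcy5 call without iBAT516 or iBAT517. Prkar2b, a regulatory subunit of protein kinase A, was higher by 2.05, a call lost without any one iBAT library or eWAT516. The higher members numbered 3 without iBAT517, and the lower members 0 without iBAT516 or iBAT517 and 1 without iBAT518.

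Respiratory chain genes were higher in iBAT as a body. In complex I, which takes electrons from NADH, 24 of 31 tested genes were higher and none lower, with a median of 2.16. In complexes II to IV and cytochrome c, 19 of 26 were higher and none lower, with a median of 2.46. In ATP synthase, which uncoupling bypasses, 8 of 14 were higher and none lower, with a median of 1.89. Among them only Atpif1, the inhibitor of ATP synthase, was negative (-1.44, adjusted p = 0.19). Summed complex I CPM came to between 31560 and 42310 in iBAT libraries and between 9853 and 10390 in eWAT libraries.

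Ndufb5, an accessory subunit of complex I, had 1149, 870 and 952 CPM in iBAT516, iBAT517 and iBAT518, against 174, 190 and 94.5 CPM in eWAT516, eWAT517 and eWAT518 (log2 fold change 2.70, SE 0.42, adjusted p = 0.00518). Uqcrc1, a core subunit of complex III, had 2236, 1835 and 1266 CPM in iBAT, against 143, 158 and 182 CPM in eWAT (log2 fold change 3.46, adjusted p = 0.00176). Cox7b, a subunit of complex IV, differed by 3.30 and Sdha, the catalytic subunit of complex II, by 2.56. Cox7a1, whose promoter is shown above, had 1630, 1107 and 1317 CPM in iBAT, against 10.5, 8.86 and 3.46 CPM in eWAT (log2 fold change 7.46, adjusted p = 0.000417). Cox6a2, the heart and muscle form of another subunit, had 497, 325 and 1029 CPM in iBAT, against 0.21, 0.648 and 0.266 CPM in eWAT, with iBAT518 highest as for muscle markers. Atp5a1, the alpha subunit of ATP synthase, differed by 2.50 with a narrow spread, at 5303 ± 334 CPM in iBAT and 939 ± 83 CPM in eWAT (SD, n = 3 each).

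Some members missed the threshold through single libraries. Cox6b1 had 1665, 5039 and 1370 CPM in iBAT, against 194, 88.4 and 2508 CPM in eWAT (adjusted p = 0.442). Ndufa1 had 805, 1773 and 748 CPM in iBAT, against 167, 71.5 and 1069 CPM in eWAT (adjusted p = 0.391). In both genes iBAT517 and eWAT518, the pair that lay on one side of the second principal component, were the highest of their depots and eWAT518 overlapped with iBAT; both were called without eWAT518. Without iBAT516 the counts higher fell to 12 in complex I and 4 in ATP synthase, and without iBAT518 complex I had 15. Without both iBAT518 and eWAT516 the counts higher were 7 in complex I, 11 in complexes II to IV and 4 in ATP synthase. In iBAT518 the median ratio to the other iBAT libraries was 0.804 for complex I and 0.782 for complexes II to IV, against 2.69 for muscle markers. Muscle markers were high in every iBAT library, and their part in these differences was not tested.

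**Figure D4:**
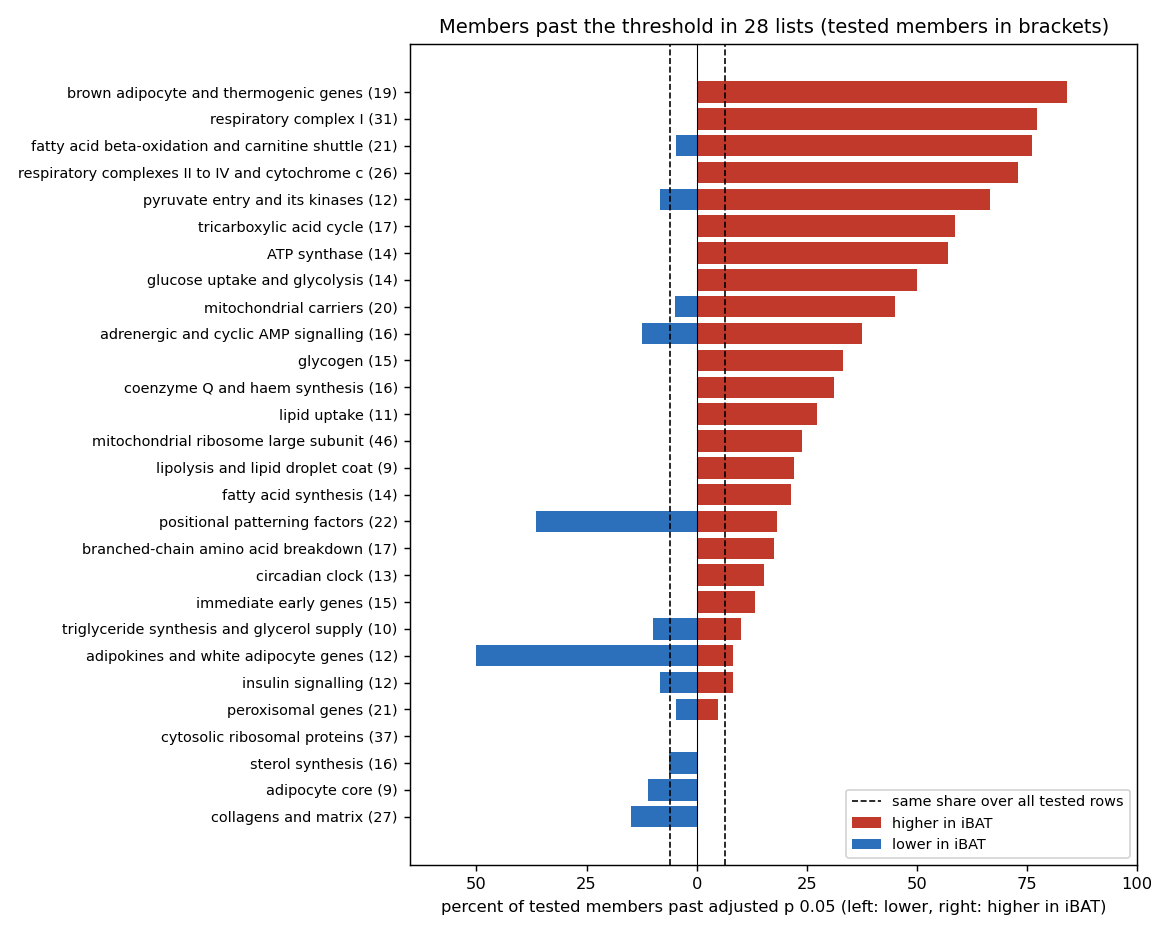
Percent of tested members past an adjusted p of 0.05 in 28 programme lists, higher in iBAT to the right and lower to the left, with dashed lines at the shares over all tested rows, 6.41% and 6.15%. Thermogenic, respiratory and fatty acid oxidation lists extend far to the right, adipokines and positional factors to the left, and ribosomal proteins have no bar.

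Fuel entry into the mitochondrion followed the respiratory chain. In the tricarboxylic acid cycle 10 of 17 genes were higher and none lower, with a median of 2.55. Suclg1, a subunit of succinyl-CoA ligase, had 2354, 6323 and 2676 CPM in iBAT516, iBAT517 and iBAT518, against 420, 312 and 256 CPM in eWAT516, eWAT517 and eWAT518 (log2 fold change 3.52, SE 0.54, adjusted p = 0.00476). Every iBAT library lay above every eWAT library. Idh2, which makes NADPH in the matrix, differed by 2.85 and Cs, citrate synthase, by 2.55. Members of this list were high in the same libraries as Cox6b1: the median member stood at 2.13 times the mean of the other libraries in iBAT517 and at 1.52 times in eWAT518. Dld, a subunit shared by several dehydrogenase complexes, overlapped through eWAT518, at 601, 1079 and 535.4 CPM in iBAT, against 64.3, 72.4 and 699 CPM in eWAT.

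Pyruvate dehydrogenase, which commits glucose carbon to oxidation, and its inhibitory kinases were both higher. Among 12 tested genes 8 were higher and 1 lower, with a median of 2.04. Pdha1, the catalytic subunit, differed by 2.84 (adjusted p = 0.00546) and Dlat, the acetyltransferase, by 2.75. Pdk4, the kinase induced in fasting, had 3107, 4271 and 4354 CPM in iBAT, against 26.9, 37.2 and 24.8 CPM in eWAT (log2 fold change 7.04, SE 0.50, adjusted p = 0.000359). Pdk2 and Pdk1 were higher by 2.18 and 1.44, the Pdk1 call being lost without iBAT516, iBAT518, eWAT516 or eWAT517. Pdk3 was the exception, at 0.849, 0.946 and 0.952 CPM in iBAT against 13.2, 12.7 and 9.59 CPM in eWAT (log2 fold change -3.64, SE 0.49, adjusted p = 0.00289), and it was lower at an adjusted p under 0.05 in each of the leave-one-out fits.

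Most tested genes of fatty acid beta-oxidation were higher in iBAT. Of 21 tested 16 were higher and 1 was lower, with a median of 2.29, and 4 did not pass: Acads (1.80, adjusted p = 0.183), Echs1 (1.54, adjusted p = 0.0812), Acot2 (1.91, adjusted p = 0.115) and Acsf2 (1.22, adjusted p = 0.231). Acads and Acot2 passed without eWAT518 and Echs1 without eWAT517. Slc25a20, the carrier of acylcarnitine into the matrix, had 1208, 989 and 1091 CPM in iBAT516, iBAT517 and iBAT518, against 60.5, 101 and 213 CPM in eWAT516, eWAT517 and eWAT518 (log2 fold change 3.14, adjusted p = 0.00697). Hadhb had 214, 283 and 281 CPM in iBAT, against 13.0, 17.7 and 27.2 CPM in eWAT (log2 fold change 3.75, SE 0.42, adjusted p = 0.00124). Hadha, which shares its promoter region, had 719, 415 and 606 CPM in iBAT, against 60.1, 73.7 and 86.8 CPM in eWAT (log2 fold change 2.98). Etfdh, which passes the electrons to coenzyme Q, differed by 3.33 and Acaa2, the last thiolase, by 4.41. Cpt1a, the liver form of the enzyme that loads fatty acids onto carnitine, was the lower member, at 48.8, 38.8 and 86.6 CPM in iBAT against 186, 167 and 205 CPM in eWAT (log2 fold change -1.68, adjusted p = 0.0253). That call was lost without iBAT516, iBAT517 or eWAT516. Cpt1b, the muscle and brown fat form, had 0.849, 10.4 and 4.76 CPM in iBAT and no count in eWAT, and was too low to be tested. Counts higher were 10 without iBAT516 or iBAT518. Without both iBAT518 and eWAT516 they were 7 here, 7 in the tricarboxylic acid cycle and 3 in the pyruvate list.

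Other mitochondrial lists were less one-sided. Carriers had 9 of 20 higher and 1 lower, with a median of 1.37. Besides Ucp1 these included Ucp3 (log2 fold change 4.71), a relative of Ucp1 known from muscle and brown fat, Slc25a51, which imports NAD, at 1110, 867 and 995 CPM in iBAT against 206, 245 and 205 CPM in eWAT, and Slc25a42, a carrier of coenzyme A, which differed by 2.62. Slc25a10, the dicarboxylate carrier, differed by -1.68 (adjusted p = 0.049), a call lost without any one library but eWAT518. In coenzyme Q and haem synthesis 5 of 16 were higher, and all 5 belong to coenzyme Q (Coq10a, Coq9, Coq6, Coq5, Coq3); the count was 3 without iBAT516, iBAT518 or eWAT516. Coq9 had 1334, 2695 and 1622 CPM in iBAT, against 306, 333 and 265 CPM in eWAT.

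Large-subunit proteins of the mitochondrial ribosome had 11 of 46 higher and a median of 0.94, below those of the respiratory lists. Mrpl42 had the largest difference of them, at 67.9, 50.8 and 67.2 CPM in iBAT against 9.87, 8.21 and 7.19 CPM in eWAT (log2 fold change 2.87). This count was 3 without iBAT516, iBAT518 or eWAT516, 7 without iBAT517 or eWAT517 and 15 without eWAT518. Breakdown of branched-chain amino acids had 3 of 17 higher (Bckdha, Pccb, Mcee), none without any one iBAT library or eWAT516, 1 without eWAT517 and 5 without eWAT518. Peroxisomal genes, which shorten very long fatty acids, had 1 of 21 higher (Phyh, log2 fold change 2.37) and 1 lower (Abcd2, -2.29), near the shares over all rows, with a median of 0.38; the Abcd2 call was lost without any one iBAT library, and the count higher was 2 without iBAT517 and 3 without eWAT518. Cytosolic ribosomal proteins had none of 37 past the threshold in either direction and a median of 0.13. In that list 1 gene had an unadjusted p under 0.05, and DESeq2 and limma voom called 0 each.

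Few genes of fat synthesis passed the test. Of 14 fatty acid synthesis genes 3 were higher: Acacb, the mitochondrial acetyl-CoA carboxylase, at 631, 1058 and 570 CPM in iBAT against 65.9, 166 and 92.7 CPM in eWAT, Elovl6, an elongase (log2 fold change 2.66), and Thrsp, a lipogenic factor (2.03), whose call was lost without any one iBAT library or eWAT517. Fasn, fatty acid synthase, had 5729, 6601 and 5853 CPM in iBAT, against 575, 2555 and 2136 CPM in eWAT and did not pass (adjusted p = 0.071). Its iBAT libraries were all above its eWAT libraries, as in 16.3% of all tested rows. Scd1, the desaturase, differed by 0.93 (adjusted p = 0.338). Sterol synthesis had 1 of 16 past the threshold (6.25%), near the 6.15% of all rows that were lower, and a median of -0.35. That gene was Msmo1, at -1.43, a call lost without any one library but eWAT517.

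In triglyceride synthesis and the supply of its glycerol backbone 1 of 10 was higher and 1 lower. Each count is 10%, near the 6.41% higher and 6.15% lower over all rows. Gpd1, which makes glycerol 3-phosphate, had 1924, 2126 and 2055 CPM in iBAT516, iBAT517 and iBAT518, against 113, 353 and 331 CPM in eWAT516, eWAT517 and eWAT518 (log2 fold change 2.94, adjusted p = 0.00772). Gpat3, an acyltransferase, went the other way at 25.9, 34.7 and 49.2 CPM in iBAT against 127, 221 and 247 CPM in eWAT (log2 fold change -2.44, adjusted p = 0.00748). Both calls were made in every leave-one-out fit, and the count higher was 3 without eWAT517 or eWAT518. Of the droplet coat and lipolysis list 2 of 9 were higher, Cidea and Fitm1, a droplet-forming protein of muscle that had 67.5, 33.7 and 197 CPM in iBAT against 0.63, 0 and 0.799 CPM in eWAT. Plin4, a coat protein of white adipocytes, differed by -1.49 (adjusted p = 0.0712).

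Lipid uptake had 3 of 11 higher: Fabp3, the heart-type fatty acid binding protein, Slc27a2, a fatty acid transport protein, and Acsl5, an acyl-CoA synthetase, whose call was lost without any one iBAT library or eWAT516. Fabp3 had 1593, 940 and 2183 CPM in iBAT, against 14.9, 1.30 and 14.9 CPM in eWAT (log2 fold change 7.24, SE 0.95, adjusted p = 0.00257). It was highest in iBAT518, as muscle markers were. Slc27a2 had 81.9, 125 and 59.9 CPM in iBAT, against 9.03, 2.81 and 1.86 CPM in eWAT (log2 fold change 4.26), and was lowest in iBAT518.

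Glycolysis and glycogen genes were higher in iBAT in part. Of 14 genes of glucose uptake and glycolysis 7 were higher and none lower, with a median of 1.58. Gpi1, which starts the path after phosphorylation, had 3205, 2005 and 2517 CPM in iBAT, against 495, 663 and 231 CPM in eWAT (log2 fold change 2.47, adjusted p = 0.0129), a call lost without iBAT516. Pgam2, the muscle form of phosphoglycerate mutase, had 694, 352 and 1356 CPM in iBAT, against 1.05, 4.97 and 2.93 CPM in eWAT. Slc2a4, the insulin-responsive glucose transporter, overlapped (114, 152 and 167 CPM in iBAT, against 38.0, 50.8 and 144 CPM in eWAT). Slc2a1, the transporter of most cells, was at 8.91, 11.4 and 16.8 CPM in iBAT and at 32.6, 27.9 and 34.6 CPM in eWAT (adjusted p = 0.0557). In iBAT518 the median member of each list stood at 1.25 times the mean of iBAT516 and iBAT517. The count was 3 without iBAT516, 4 without iBAT517 and 3 without both iBAT518 and eWAT516.

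For glycogen 5 of 15 genes were higher and none lower, with a median of 1.56. Pygm, the muscle phosphorylase that breaks glycogen down, had 1990, 620 and 4942 CPM in iBAT, against 18.9, 11.9 and 13.3 CPM in eWAT (log2 fold change 7.42, adjusted p = 0.00166), the order of libraries shown by muscle markers. Gyg, glycogenin, had 785, 654 and 970 CPM in iBAT, against 166, 277 and 115 CPM in eWAT (log2 fold change 2.11), and Gys1, glycogen synthase, differed by 1.45. The count was 1 without iBAT516 or iBAT518, 2 without eWAT516, 3 without eWAT517, 9 without eWAT518 and 2 without both iBAT518 and eWAT516.

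Positional transcription factors, which record where along the body a tissue arose, split the depots. Of 22 tested, 4 were higher in iBAT (among them Tbx15, Tbx5 and Irx5) and 8 were lower (Nr2f1, Hoxb5, Hoxb6, Hoxb7, Hoxc6, Hoxc8, Hoxd3, Hoxd4). Tbx15, a factor of the trunk skin and its fat, had 69.2, 38.8 and 139 CPM in iBAT516, iBAT517 and iBAT518, against 0.63, 0 and 0 CPM in eWAT516, eWAT517 and eWAT518 (log2 fold change 8.31, SE 0.96, adjusted p = 0.00152). Irx5 had 13.6, 14.8 and 32.7 CPM in iBAT, against 1.26, 1.08 and 0.799 CPM in eWAT (log2 fold change 4.23). These 3 were called in each leave-one-out fit. Hoxc8 had 3.40, 5.99 and 9.20 CPM in iBAT, against 25.8, 34.8 and 188 CPM in eWAT (log2 fold change -3.72, adjusted p = 0.0212), with eWAT518 far above the others. Hoxb7 had 3.40, 1.89 and 4.12 CPM in iBAT, against 117, 17.5 and 16.5 CPM in eWAT, with eWAT516 highest. The number lower was 0 without iBAT516 or iBAT518 and 2 without iBAT517. Without both iBAT518 and eWAT516, 3 were higher and 2 lower. Hoxa5 differed by 0.47 (adjusted p = 0.53).

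Markers of other resident cells were mostly lower in iBAT or did not separate, beside 6.15% of all tested rows lower and 6.41% higher. Nerve and Schwann cell markers went the other way, with 5 of 6 tested positive and a median of 0.89. Of these 1 was called higher (S100b, log2 fold change 3.92), which is also in the thermogenic list. The macrophage list had 3 of 16 lower (Mrc1, Lyve1, Cd209f), with a median of -0.86. Its sums were 204 to 243 CPM in iBAT and 359 to 959 CPM in eWAT. Of its members 1 was called lower without iBAT516, iBAT517, eWAT517 or eWAT518, 2 without iBAT518 and 5 without eWAT516. Endothelial markers had none of 10 past the threshold in edgeR, 1 at an unadjusted p under 0.05, 1 by DESeq2 and 0 by limma voom, with a median of 0.04 and overlapping sums of 1092 to 1743 CPM in iBAT and 952 to 1794 CPM in eWAT. Progenitor and fibroblast markers had 3 of 7 lower (Dpp4, Anxa3, Icam1), a count that was 0 without iBAT516, 1 without iBAT517, iBAT518 or eWAT516 and 2 without eWAT517. Of 27 collagens and matrix genes 4 were lower (Col16a1, Col6a1, Mfap5, Timp2) and none higher, with a median of -0.99 and all 27 negative. That count was 0 without iBAT516, 1 without iBAT517 or iBAT518 and 2 without eWAT517, and 11 by DESeq2. Mesothelial markers had 7 of 9 lower, among them Krt8 with no count in iBAT and Msln, the mesothelin gene, with 0, 0.315 and 0.634 CPM in iBAT against 5.46, 6.05 and 5.33 CPM in eWAT; 4, 3 and 4 were called without iBAT516, iBAT517 and iBAT518.

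Pericyte and smooth muscle markers had 3 of 7 lower, all highest in eWAT516, and none higher. Of the 7 markers 3 were positive and 4 negative, with a median of -0.07. Their sums were 798, 705 and 1346 CPM in iBAT516, iBAT517 and iBAT518. In eWAT516, eWAT517 and eWAT518 they were 7695, 343 and 873 CPM, so the depots overlapped. Acta2, smooth muscle actin, had 22.9, 35.6 and 45.0 CPM in iBAT, against 1551, 69.6 and 386 CPM in eWAT (log2 fold change -4.27, adjusted p = 0.0257). The epididymal sum was highest in the same library, eWAT516, and none of the 3 lower markers was called without any one iBAT library. Col6a5, a collagen VI chain, was not in the matrix list but among the 12 largest falls, at 0, 0 and 1.27 CPM in iBAT against 216, 309 and 364 CPM in eWAT (log2 fold change -9.25, SE 0.88, adjusted p = 0.000644), with all 3 eWAT libraries high.

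Immediate early genes, which respond to handling within minutes as well as to adrenergic drive, had 2 of 15 higher, Fos and Nr4a1, and a median of 1.29. Nr4a1 had 67.9, 249 and 161 CPM in iBAT, against 4.41, 8.43 and 5.06 CPM in eWAT (log2 fold change 4.73, SE 0.59, adjusted p = 0.00204). Fos had 147, 293 and 111 CPM in iBAT, against 11.6, 25.9 and 49.0 CPM in eWAT (log2 fold change 2.67). Their summed level was 2065, 3869 and 1338 CPM in iBAT libraries and 952, 1255 and 802 CPM in eWAT libraries, highest in iBAT517. The count was 1 without iBAT516, iBAT517 or eWAT517 and 4 without iBAT518. Genes of the circadian clock had 2 of 13 higher, among them Nfil3, a repressor (log2 fold change 1.84); the count was 0 without iBAT517, iBAT518 or eWAT516 and 1 without iBAT516 or eWAT517. In insulin signalling 1 of 12 tested was higher and 1 lower (8.33% each), near the 6.41% and 6.15% over all rows. Grb14, an adaptor that restrains the receptor, was higher by 1.53 and Igfbp4, which binds insulin-like growth factors, differed by -2.14. Neither was called without any one iBAT library or eWAT517.

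The largest differences were led by genes known from muscle among the rises and from the epididymis among the falls. Which cells held these transcripts was not tested. The 12 largest rises among rows of at least 20 CPM in 1 depot are all genes known from muscle, among them Myh7, Myl2, Myh1, Myh4, Hjv, Trdn, Art1, Lmod3, Myoz1, Atp2a1 and Pvalb. Myh7, a slow myosin, had 548.3, 307 and 1004 CPM in iBAT and no count in eWAT, at least 2720-fold higher in iBAT against a floor of 3 counts over the 3 eWAT libraries (0.228 CPM). Myl2, a slow light chain, had 1753, 1073 and 2454 CPM in iBAT, against 0, 0.216 and 0 CPM in eWAT. Of 16 muscle markers tested 14 were higher and none lower, with a median of 9.74, or 9.50 with genes at 0 in eWAT set to their bound. Casq1 was not called (adjusted p = 0.129), through 87.4 CPM in eWAT516 against 0.432 and 0.799 CPM in the other 2 eWAT libraries, and was called without eWAT516, the eWAT library with the highest muscle sum.

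Among the 12 largest falls were secreted proteins of the epididymis and the protamines of sperm. Spink8, an epididymal protease inhibitor, had no count in iBAT and 2605, 16.6 and 865 CPM in eWAT, at least 3360-fold lower in iBAT against a floor of 3 counts over the 3 iBAT libraries (0.346 CPM). Wfdc13 was at least 842-fold lower and Krt8, a keratin of mesothelium and epithelia, at least 637-fold lower. Prm2, a protamine that packs sperm DNA, had no count in iBAT and 19.7, 10.2 and 109 CPM in eWAT. The highest library differed by gene: eWAT516 for Spink8 and eWAT518 for Prm2. The Spink8 call was lost without iBAT516 or iBAT517, and the Prm2 call without iBAT517. All 7 markers of epididymis and testis tested were lower, and 3, 2 and 4 were called without iBAT516, iBAT517 and iBAT518. Their part in other calls lower in iBAT was not tested.

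Pairs of related genes were set against each other as CPM per kilobase of transcript, with the limit given above that a low row is not shown to be a low gene. Ucp1 made up 99.5%, 99.2% and 99.5% of the sum of Ucp1 and Ucp2 in iBAT516, iBAT517 and iBAT518, against 2.41%, 9.32% and 28.6% in eWAT516, eWAT517 and eWAT518. Ucp2, a widely expressed relative, itself overlapped between depots (adjusted p = 0.327). Cox6a2 was 46.2%, 24.9% and 60.2% of its pair with the common form Cox6a1 in iBAT, against 0.107%, 0.305% and 0.113% in eWAT. The muscle forms of cytochrome c oxidase were thus a large share of their pairs in iBAT and close to 0 in most eWAT libraries: Cox8b was 31.7%, 54.5% and 27.5% of its pair with Cox8a in iBAT, against 0.258%, 0.641% and 14.6% in eWAT. Cox8a and Cox6a1 were themselves higher in iBAT, by 1.83 and 1.80 on the log2 scale, calls lost without iBAT518 or eWAT516 for both and also without iBAT516, iBAT517 or eWAT517 for Cox8a.

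Cidea was 28.1%, 16.7% and 18.3% of its pair with Cidec, the droplet protein of white fat, in iBAT, against at most 0.0744% in eWAT. Fabp3 was 20.5%, 12.1% and 14.9% of its pair with Fabp4 in iBAT, against at most 0.183% in eWAT, so Fabp4 remained the larger in every library. Elovl3 was 39.9%, 24.5% and 50.5% of its pair with Elovl5 in iBAT, against 0.383%, 0% and 1.95% in eWAT. Other pairs overlapped. Slc25a4, the adenine nucleotide carrier of muscle, was 57.0%, 69.7% and 74.9% of its pair with Slc25a5 in iBAT, against 54.1%, 59.6% and 10.3% in eWAT, where eWAT518 alone stood apart. Gys2, the liver glycogen synthase, was 7.77%, 18.1% and 10.2% of its pair with Gys1 in iBAT and 6.81%, 9.54% and 17.8% in eWAT. Cox4i2, the form of oxygen-poor tissue, was a small share of its pair with Cox4i1 throughout, at 0.105%, 0.106% and 0.0922% in iBAT against 0.258%, 0.352% and 0.435% in eWAT, and lower in every iBAT library than in any eWAT library.

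**Figure D5:**
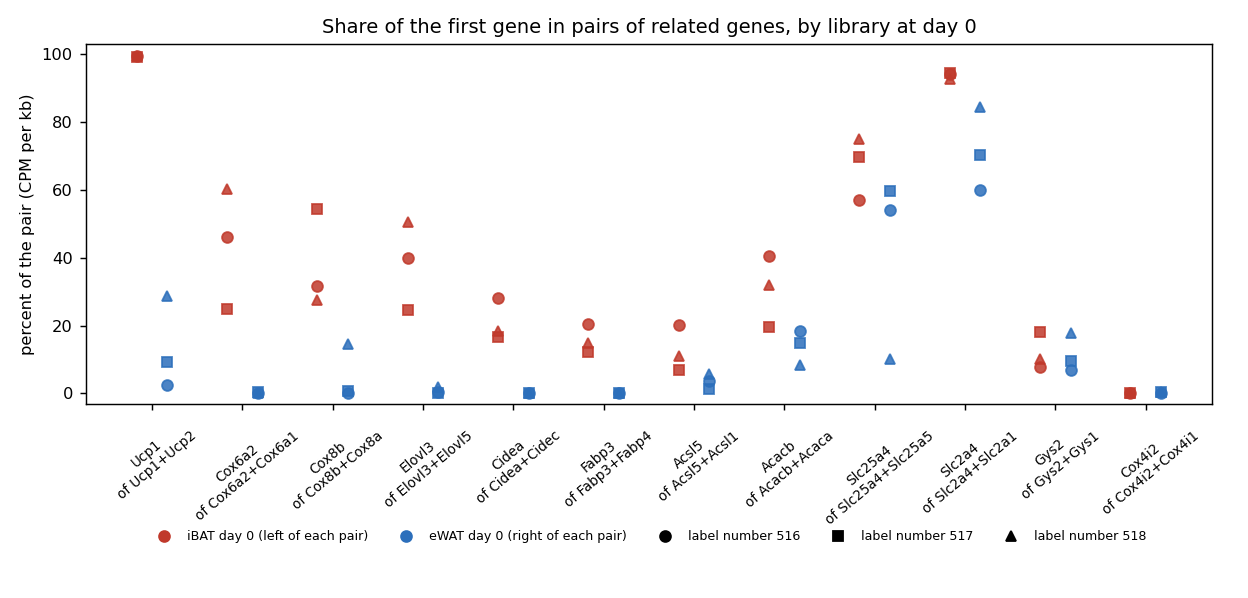
Percent of the first gene in 12 pairs of related genes, from CPM per kilobase of transcript, 1 point per library, iBAT in red to the left of eWAT in blue. Ucp1 is above 99% of its pair in every iBAT library, muscle forms of cytochrome c oxidase and brown adipocyte forms are seen in iBAT and are close to 0 in most eWAT libraries, and Gys2 overlaps between depots.

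The same depots were compared in other libraries of the series, taken after 2 days (4 iBAT and 3 eWAT) and 4 days (3 and 3) at 4 °C. Of the 584 rows higher in iBAT at day 0, 552 were tested at day 2, where 543 (98.4%) had the same sign, beside 45.8% of all tested rows with that sign, and 352 passed the threshold, beside 6.21% of all rows. At day 4, 524 of 533 (98.3%) had the same sign, beside 42.4% of all rows, and 292 passed, beside 4.54%. Of the rows lower in iBAT at day 0, 428 of 433 (98.8%) had the same sign at day 2, beside 54.2% of all rows, and 245 passed, beside 4.82%. At day 4, 464 of 466 (99.6%) had it, beside 57.6% of all rows, and 130 passed, beside 2.43%. No row was called in the opposite direction. The median log2 fold change of rows higher at day 0 was 2.44 at day 0 and 2.46 at day 2 over the rows tested at both.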

How the data were processed

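RNA-seq raw counts per RefSeq accession were deposited by the authors, 1 table per depot. Per the submitters' processing notes the tools named were cutadapt and BWA and the build was mm10; the counting step, annotation release and use of strand are not given in the sources used here. Rows in both tables were joined by accession, with NA read as 0. Of 13543 joined rows, 13347 took a symbol from RefSeq GRCm38.p6, 71 from GENCODE and 125 had none; 292 rows share a symbol with another row. Rows in 1 table only (390 in iBAT, 2589 in eWAT) were not tested and held at most 0.0562% and 1.01% of a library's counts.

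Depots were compared with edgeR 4.0.16 (R 4.3.3): TMM scaling, a filter on low counts (minimum count 10, minimum total 15), a robust quasi-likelihood fit to the 6 libraries and Benjamini-Hochberg adjustment at 0.05. Fold changes are log2 of iBAT over eWAT, with SE from the fold change and the F statistic. CPM of genes use TMM-scaled sizes, and summed marker CPM use plain totals. Alternatives were RLE scaling, library size alone, no filter, rows in either table, DESeq2 1.42.0, limma 3.58.1 voom, larger fits of 19 and 31 libraries, the label number as a block and each library left out. Pairing of the depots by label number was not seen, which does not show that the libraries are unpaired. In simulated data for this comparison (9113 rows), 0% of 2-fold, 42% of 4-fold, 94% of 8-fold and 100% of 16-fold changes were recovered, 50 genes each.

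Members and lists were chosen with earlier results of these data known. Genes named by rule were 29 fixed genes (17 had a row), the 12 largest rises and falls of at least 20 CPM in 1 depot without overlap, up to 4 called members of each list with the smallest adjusted p plus the member furthest from the threshold of at least 5 CPM, and 24 pairs (15 with both rows). Other genes were named after their values were seen. Some genes are not reported here.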

Additional observations from a re-analysis of the deposited data

Results flagged for a closer look

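Some genes had a row in only 1 of the 2 depots' tables, so they entered no test. Zic1 and Lhx8, transcription factors used as markers of classical brown fat, had rows in the iBAT table alone, with means of 20.51 and 12.68 CPM. Their raw counts were 54, 50 and 72 for Zic1 and 33, 34 and 42 for Lhx8 in iBAT516, iBAT517 and iBAT518. Tcf21 and Wt1, factors of visceral fat and mesothelium, had rows in the eWAT table alone, with means of 11.86 and 8.46 CPM, and Hoxc9 had 1.44 CPM there. Crisp1 and Defb28, secreted by the epididymis, and Epcam, an epithelial adhesion protein, had means of 909.1, 199.0 and 147.5 CPM in eWAT and no row in iBAT. Crisp1 was uneven, with 11637, 42 and 1032 counts in eWAT516, eWAT517 and eWAT518. Why a table lacks a row was not tested.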

How the results depend on the processing

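In each of the 16 alternatives, 0 of the called rows that it tested changed direction. Of 124 called genes named in the text, all kept their direction in these alternatives and 64 passed the threshold in each of them. Of 26 named genes not called, 17 passed in at least 1. The number of rows higher in iBAT was 584, with 345 to 769 when 1 library was left out and 282 without both iBAT518 and eWAT516. The number lower was 560, with 184 to 772 when 1 library was left out, 320 without both of those libraries, 1125 with library size alone and 365 with the label number as a replicate block. The block gave 418 higher. Pairing by label number was not seen: same-numbered deviations correlated at 0.101, -0.294 and -0.052. With 3 libraries a depot such correlations cannot show that the libraries are unpaired. DESeq2 called 837 higher and 822 lower. Leaving out eWAT518, the library farthest along the second component, raised both counts, and the cause was not tested. With 3 libraries a group and a biological coefficient of variation of 0.462, 0% of 2-fold and 42% of 4-fold changes were recovered in simulation, so a gene that missed the threshold is not shown to be equal between depots.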
